A study of Mus musculus with 12 samples.

Results

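The vascular endothelial growth factor (VEGF) and angiopoietin genes described here are 10 of the 25124 genes of the count table, and they were chosen by symbol. They are the VEGF ligands Vegfa, Vegfb, Vegfc and Pgf, the VEGF receptors Flt1, Kdr and Flt4, the angiopoietins Angpt1 and Angpt2, and the angiopoietin receptor Tek. RNA was sequenced from mouse brain 28 days after middle cerebral artery occlusion (MCAo), which models ischemic stroke, in a study of DKK1 (dickkopf-1), which is secreted and blocks Wnt signalling. Wild-type mice were C57BL6/J. The DKK1 mice carried Gt(ROSA)26Sortm1.1(rtTA,EGFP)Nagy, a doxycycline-dependent activator with EGFP at ROSA26, together with Hprttm1(tetO-Dkk1)Spdl, a Dkk1 transgene at Hprt that this activator switches on, and the Wnt reporter Tg(TCF/Lef1-lacZ)34Efu/J. All mice had the occlusion and doxycycline at 200 mg/kg, with induction 3 days after MCAo. With the lesioned hemisphere (ipsilateral) and the intact one (contralateral) of both genotypes there were 4 groups of 3 libraries, 12 in all. No group carried the transgenes without doxycycline, and no brain came from a mouse without MCAo, so induced Dkk1 and the other alleles and DNA of the DKK1 mice cannot be told apart. Age and sex are not in the labels. The labels do not say which libraries come from separate animals, so p-values measure the spread between these libraries, which may in part be technical.

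VEGF ligands are secreted proteins that bind receptor tyrosine kinases on endothelial cells, where Kdr (VEGFR2) carries most of the growth and permeability signal and Flt1 (VEGFR1) can hold ligand away from it. Angiopoietins bind Tek (Tie2) on the same cells: Angpt1, made largely by cells around the vessel, keeps vessels stable, and Angpt2, made and stored by endothelial cells, can oppose it. In the brain both systems are known for vessel growth and blood-brain barrier permeability after ischemia.

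Library totals ran from 21209920 to 26911840 counts, with 19557 to 20272 genes detected per library. Levels are given in CPM, the count scaled to the library total, with totals adjusted by edgeR's TMM factors. Dkk1 itself had 0 counts in all 6 wild-type libraries, where 3 counts would be 0.112 to 0.128 CPM. In DKK1 mice it stood at 0.637, 0.205 and 0.174 CPM in intact libraries 1, 2 and 3. In lesioned libraries 1, 2 and 3 it stood at 1.25, 0.289 and 1.64 CPM. Of the brain cell types, the 8 neuronal markers summed to 3221 to 4990 CPM over the 12 libraries, with none at 0. All 10 VEGF and angiopoietin genes passed the filter on low counts, with 35 counts (Pgf) to 2855 counts (Vegfa) in a library. Every adjusted p below is from edgeR's quasi-likelihood test with Benjamini-Hochberg adjustment over the 17612 genes tested, unless another tool is named, and a gene was called at an adjusted p under 0.05.

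Start sites of 8 of the 10 genes were matched to RefSeq promoters of GRCm38.p6, the build (mm10) of the count table; Angpt1 and Angpt2 were not matched. The 250 bases before the start are shown for 4 genes with different behaviour in these data: Pgf, which rose in the lesion, Vegfa, which fell in the DKK1 lesion, and the receptors Kdr and Tek, which were highest in the same libraries. Capitals mark the letters ACGTG or GCGTG (the core of a hypoxia response element), CTTTGAT or CTTTGTT (as TCF/LEF factors bind) and CCGGAA or ACAGGAA (as ETS factors bind), searched on both strands.
Pgf, chr12:85177314-85177563, minus strand: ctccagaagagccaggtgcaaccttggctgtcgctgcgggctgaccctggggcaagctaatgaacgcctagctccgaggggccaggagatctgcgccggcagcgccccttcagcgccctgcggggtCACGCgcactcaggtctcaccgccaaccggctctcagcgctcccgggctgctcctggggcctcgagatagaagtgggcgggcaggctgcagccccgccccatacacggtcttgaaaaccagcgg
Vegfa, chr17:46032378-46032627, minus strand: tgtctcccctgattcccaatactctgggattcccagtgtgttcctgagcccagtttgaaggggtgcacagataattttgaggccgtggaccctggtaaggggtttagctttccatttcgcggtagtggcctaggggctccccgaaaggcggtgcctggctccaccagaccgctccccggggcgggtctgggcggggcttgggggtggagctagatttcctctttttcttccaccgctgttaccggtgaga
Kdr, chr5:75978456-75978705, minus strand: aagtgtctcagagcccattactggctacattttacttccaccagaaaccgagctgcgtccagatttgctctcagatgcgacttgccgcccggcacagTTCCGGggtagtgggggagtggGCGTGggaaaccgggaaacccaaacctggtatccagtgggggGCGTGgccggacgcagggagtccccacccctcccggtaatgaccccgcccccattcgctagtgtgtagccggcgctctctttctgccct
Tek, chr4:94739039-94739288, plus strand: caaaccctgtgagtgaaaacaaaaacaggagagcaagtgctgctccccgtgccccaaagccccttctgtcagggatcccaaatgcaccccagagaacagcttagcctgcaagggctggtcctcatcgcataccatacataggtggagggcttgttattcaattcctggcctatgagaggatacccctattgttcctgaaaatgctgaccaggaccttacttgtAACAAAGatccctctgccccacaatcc
The Pgf promoter held 1 hypoxia core, CACGC on the strand shown, 124 bases before the start. The Kdr promoter held GCGTG at 131 and at 89 bases before the start and the ETS letters, as TTCCGG, at 153 bases. In the Tek promoter the TCF/LEF letters, as AACAAAG, lay 27 bases before the start. The Vegfa window held none of these letters. A further RefSeq start of Vegfa lies 7214 bases downstream of the first, and the window before it held GCGTG and CACGT. That window (chr17:46025164-46025413) is inside the Vegfa gene itself (chr17:46016993-46032377), so these letters are gene body and not sequence upstream of the gene. Such letters are common: of 32851 promoters, 38.6% held a hypoxia core, 8.06% the TCF/LEF letters and 18.4% the ETS letters in a window of this length. A match describes the letters and not a bound site.

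Per base of transcript (CPM divided by the transcript's length in kilobases, RPKM), Vegfb, a ligand of Flt1, had the highest level of the 10 genes in all 4 groups, followed by Vegfa, the main ligand of Kdr, and then by Flt1. In the intact hemisphere of wild-type mice Vegfb stood at 47.1 ± 0.99 RPKM, Vegfa at 28.6 ± 1.78 RPKM and Flt1 at 12.6 ± 2.05 RPKM (SD, n = 3 each). In every group the libraries of these 3 neighbours in the order did not overlap. The other 7 genes lay between 1.23 and 5.16 RPKM as group means, and most neighbours among them overlapped. Kdr (3.67 ± 1.15 RPKM) and Tek (3.29 ± 1.11 RPKM) came next in the intact wild-type hemisphere and overlapped each other. Angpt2 was last there, at 1.31 ± 0.34 RPKM, overlapping Flt4, the receptor of Vegfc, at 1.32 ± 0.09 RPKM. In the lesioned hemisphere of DKK1 mice Angpt2 was the fourth of the 10, at 5.16 ± 2.28 RPKM, and its libraries overlapped those of Kdr at 4.35 ± 1.23 RPKM. Flt4 was last in the other 3 groups.

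**Figure D1:**
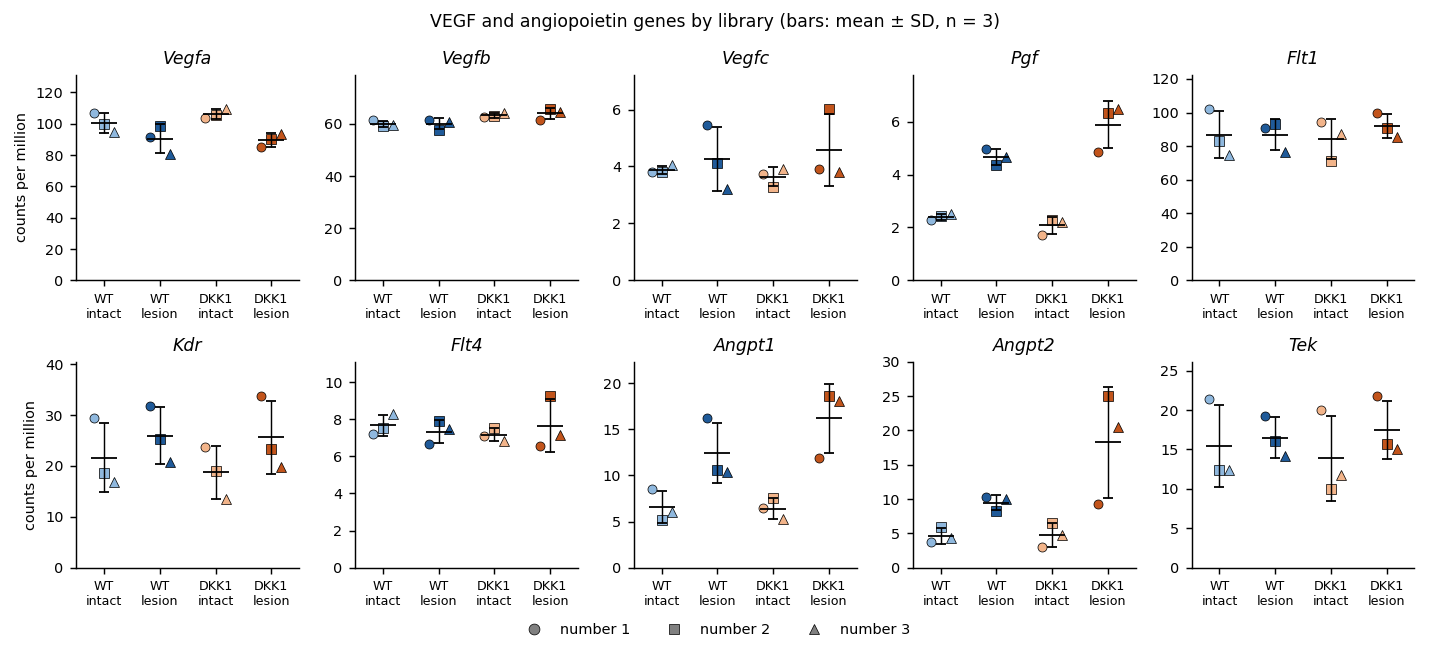
CPM of each of the 10 genes in the 12 libraries (y axis, linear, from 0), by genotype and hemisphere (x axis), with the mean and SD of 3 libraries as bars and the library number as the marker shape. Pgf, Angpt1 and Angpt2 are higher in the lesioned than in the intact hemisphere of both genotypes, while Vegfb stays between 57.8 and 65.8 CPM in all libraries.

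The comparison of the lesioned with the intact hemisphere of wild-type mice shows how these genes stood 28 days after the stroke without the transgene. Pgf, Angpt1 and Angpt2 rose, to between 1.88 and 2.05 times their level in the intact hemisphere, and no other member passed the test in the unpaired fit. Vegfa was lower in the lesioned library of all 3 same-numbered pairs. It was called lower (-0.16, adjusted p 0.0270) in a fit with this assumed pairing as a block, which called 45.3% of all tested genes. Among the tested genes 37.2% were called in the unpaired comparison, 21.2% higher and 15.9% lower, and 3 of the 10 VEGF and angiopoietin genes were, all of them higher. The median log2 fold change of the 10 was 0.12, against 0.01 over all genes tested. The libraries of the 2 hemispheres did not overlap for the same 3 genes, against 50.3% of all tested genes.

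Pgf, the placental growth factor, which binds Flt1, stood at 2.29, 2.44 and 2.49 CPM in intact libraries 1, 2 and 3 and at 4.97, 4.36 and 4.68 CPM in lesioned libraries 1, 2 and 3. All 3 lesioned libraries were above all 3 intact ones, and the spread within each group was small beside that gap. The log2 fold change was 0.96 ± 0.17 (SE), with an adjusted p of 0.00126. Pgf had 57 to 61 counts in the intact and 110 to 133 in the lesioned wild-type libraries.

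Angpt1, the stabilising ligand of Tek, stood at 8.52, 5.22 and 6.08 CPM in the intact and at 16.2, 10.6 and 10.4 CPM in the lesioned libraries. Library 1 was the highest of its group in both hemispheres, and the groups did not overlap. The log2 fold change was 0.91 ± 0.25, with an adjusted p of 0.0141. Without intact library 2 the adjusted p was 0.0602, and without lesioned library 1 it was 0.0634.

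Angpt2, the angiopoietin that endothelial cells store and release, stood at 3.68, 5.99 and 4.26 CPM in the intact and at 10.2, 8.20 and 10.05 CPM in the lesioned libraries. The groups did not overlap, and library 2 was the highest of the intact and the lowest of the lesioned ones. The log2 fold change was 1.04 ± 0.36, with an adjusted p of 0.0398. The call of Angpt2 was lost in 8 of 16 alternatives, where the adjusted p reached 0.232, and the fold change stayed between 0.80 and 1.26.

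The other ligands did not pass the test in wild-type mice. Vegfa stood at 107, 100 and 94.6 CPM in the intact and at 91.6, 98.8 and 80.7 CPM in the lesioned libraries. It was lower in the lesioned library of each number, but the groups overlapped (log2 fold change -0.15 ± 0.07, adjusted p 0.116). Vegfb had a log2 fold change of 0.00 ± 0.05, the smallest standard error of the 10 genes, and an adjusted p of 0.976. Vegfc, a ligand of Flt4 known for lymphatic growth, had a log2 fold change of 0.13 ± 0.22, and its lesioned libraries ranged from 3.20 to 5.46 CPM around the intact ones at 3.79 to 4.05 CPM.

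None of the 4 receptors passed the test in wild-type mice with unpaired libraries. Kdr stood at 29.4, 18.6 and 16.8 CPM in the intact and at 31.9, 25.2 and 20.7 CPM in the lesioned libraries, a log2 fold change of 0.26 ± 0.27 with an adjusted p of 0.487. Each lesioned library was above the intact one of its number, but library 1 of either hemisphere lay well above the others, so the groups overlapped. Tek (0.10 ± 0.28), Flt1 (0.00 ± 0.13) and Flt4 (-0.06 ± 0.14) had log2 fold changes within 1 standard error of 0.

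Libraries of the same genotype and number deviated together to a varying degree in both hemispheres (correlations of 0.105 to 0.487). A fit with genotype by number as a block was therefore also made. The labels do not give this pairing, and it is assumed here. With this pairing 5 of the 10 genes were called in wild-type mice, against 45.3% of all tested genes. Beside Pgf, Angpt1 and Angpt2, these were Kdr, with a log2 fold change of 0.28 (adjusted p 0.0181), and Vegfa, with -0.16 (adjusted p 0.0270). For Kdr the differences between the hemispheres, on the log2 scale, were 0.12, 0.44 and 0.30 for numbers 1, 2 and 3. For Vegfa they were -0.23, -0.02 and -0.23.

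**Figure D2:**
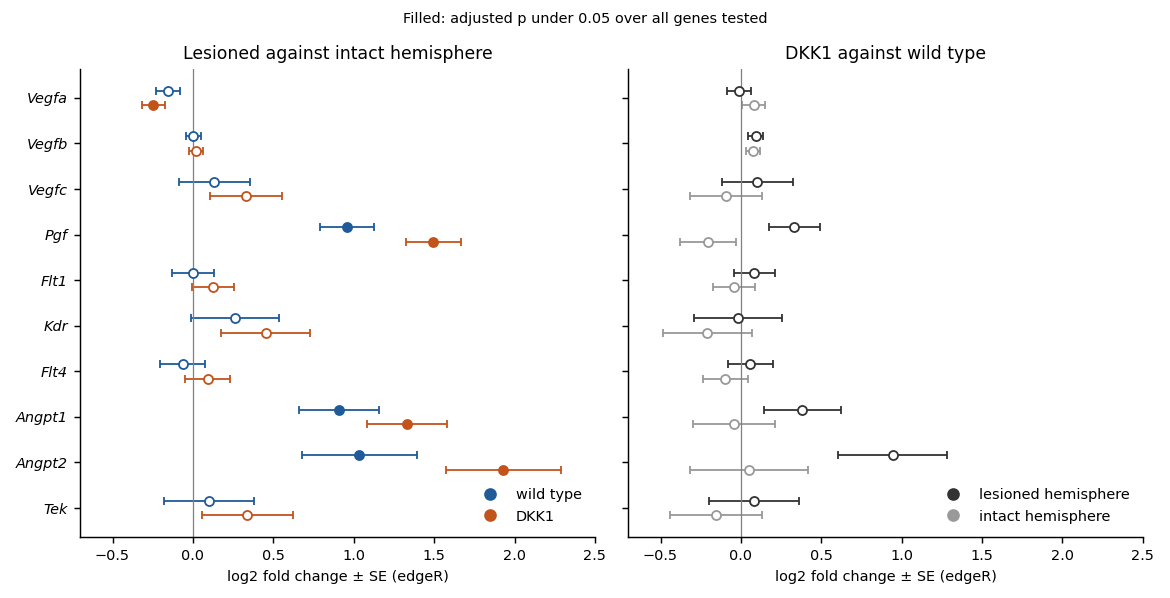
Log2 fold change ± SE from edgeR for the 10 genes (x axis), lesioned against intact hemisphere in wild-type and DKK1 mice (left) and DKK1 against wild type in the lesioned and intact hemisphere (right), with filled points at an adjusted p under 0.05. Filled points are Pgf, Angpt1 and Angpt2 in both genotypes and Vegfa in DKK1 mice, and no point of the right panel is filled.

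In DKK1 mice Pgf, Angpt1 and Angpt2 rose in the lesioned hemisphere, to between 2.52 and 3.81 times the intact level, and Vegfa fell. These 4 of the 10 genes were called, against 50.1% of all tested genes, of which 27.5% were higher and 22.6% lower. The median log2 fold change was 0.33 for the 10 genes and 0.01 over all tested. The hemispheres did not overlap for those 4 genes, against 59.9% of all tested genes.

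Angpt2 had the largest fold change of the 10 genes. It stood at 2.99, 6.52 and 4.80 CPM in intact libraries 1, 2 and 3 and at 9.32, 25.0 and 20.6 CPM in the lesioned ones. Lesioned library 1 was well below lesioned libraries 2 and 3, and intact library 1 was also the lowest of its group. The log2 fold change was 1.93 ± 0.36, with an adjusted p of 9.84e-04. Within numbers 1, 2 and 3 the difference was 1.61, 1.93 and 2.08 on the log2 scale.

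Angpt1 stood at 6.47, 7.54 and 5.23 CPM in the intact and at 11.9, 18.6 and 18.1 CPM in the lesioned libraries. As for Angpt2, lesioned library 1 was the lowest of its group. The log2 fold change was 1.33 ± 0.25, with an adjusted p of 9.92e-04. For Pgf, at 1.71, 2.30 and 2.22 CPM in the intact and 4.85, 6.31 and 6.49 CPM in the lesioned libraries, it was 1.50 ± 0.17, with an adjusted p of 2.95e-05. Lesioned library 1 was again the lowest for Pgf, and all 3 pairs differed by nearly the same amount, 1.43 to 1.51 on the log2 scale.

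Vegfa stood at 104, 106 and 109 CPM in the intact and at 85.0, 90.5 and 93.2 CPM in the lesioned libraries of DKK1 mice. The groups did not overlap, and the fall was 15.7%, a log2 fold change of -0.25 ± 0.07 with an adjusted p of 0.0143. Vegfa was lower in the lesioned hemisphere in 6 of 6 same-numbered pairs over both genotypes. This pairing is assumed, and how many of all tested genes differ in 1 direction in every pair was not counted. In DKK1 mice alone 59.9% of all tested genes had hemispheres without overlap, so such agreement is common. Vegfb (0.02 ± 0.05) and Vegfc (0.33 ± 0.22) did not pass the test. One lesioned library, number 2, held the highest Vegfc of the 12, at 6.02 CPM, and the other 2 stood at 3.92 and 3.80 CPM.

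The receptors Kdr, Flt1, Flt4 and Tek did not pass the unpaired test in DKK1 mice. Kdr stood at 23.8, 19.0 and 13.4 CPM in the intact and at 33.7, 23.4 and 19.8 CPM in the lesioned libraries, a log2 fold change of 0.45 ± 0.28 with an adjusted p of 0.196. Tek stood at 20.0, 9.92 and 11.7 CPM in the intact and at 21.8, 15.7 and 15.0 CPM in the lesioned libraries, a log2 fold change of 0.34 ± 0.28 with an adjusted p of 0.347. Both were higher in the lesioned library of every number, and in both genes library 1 lay above the others of its group. With the block 6 of the 10 genes were called, against 56.2% of all tested genes. The block added Kdr (0.45, adjusted p 9.37e-04) and Tek (0.37, adjusted p 0.0270). Flt1 (0.13 ± 0.13) and Flt4 (0.09 ± 0.14) were called in neither fit.

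**Figure D3:**
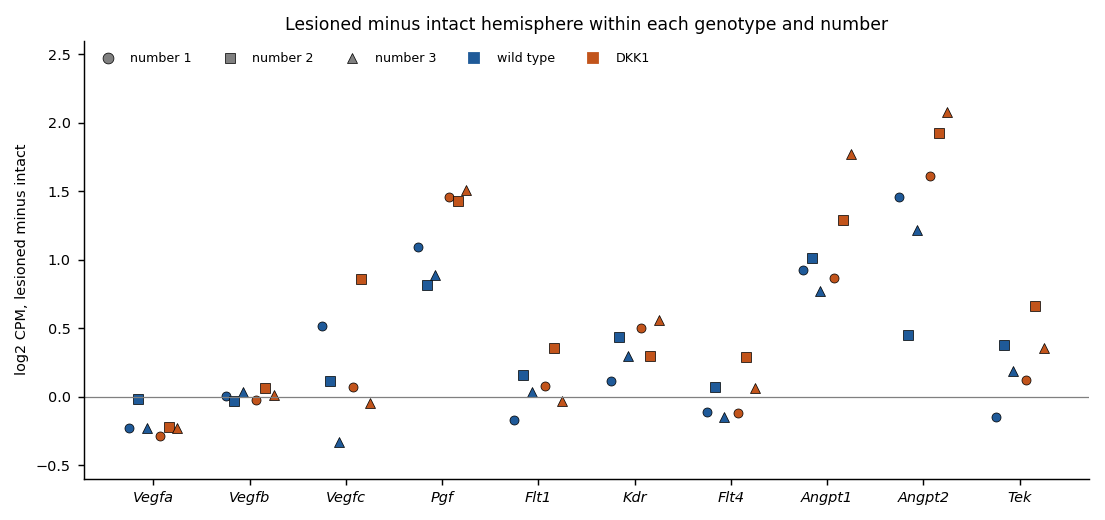
Lesioned minus intact hemisphere in log2 CPM (y axis) for each genotype (colour) and library number (marker shape), by gene (x axis). Pgf, Kdr, Angpt1 and Angpt2 lie above 0 in 6 of 6 pairs and Vegfa lies below 0 in 6 of 6, while Flt4 lies above 0 in 3 of 6. The pairing is assumed, and the share of all tested genes with 6 of 6 was not counted.

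The comparison of DKK1 with wild-type mice in the lesioned hemisphere addresses what the induced antagonist, with the other alleles, went with in the injured tissue. None of the 10 genes was called, against 2.37% of all tested genes. By DESeq2 and by limma-voom the count was also 0, and 1 gene, Angpt2, had an unadjusted p under 0.05 in edgeR. The median log2 fold change of the 10 was 0.09, against 0.02 over all genes tested. Only Vegfb had libraries that did not overlap between the genotypes, against 20.6% of all tested genes.

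Angpt2 had the largest genotype difference of the 10. Its lesioned libraries stood at 10.2, 8.20 and 10.05 CPM in wild-type and at 9.32, 25.0 and 20.6 CPM in DKK1 mice. DKK1 libraries 2 and 3 were above all wild-type ones, and DKK1 library 1 lay inside the wild-type range. The log2 fold change was 0.94 ± 0.34, with an unadjusted p of 0.0173 and an adjusted p of 0.150. Without DKK1 library 1 it was 1.26, with an adjusted p of 0.0259, and 6.01% of all genes tested were then called. Angpt2 was called in only 2 of 17 alternatives, both of them without that library. Over the 17 the log2 fold change ran from 0.65 to 1.32, and the adjusted p reached 0.450.

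Angpt1 stood at 16.2, 10.6 and 10.4 CPM in the lesioned wild-type and at 11.9, 18.6 and 18.1 CPM in the lesioned DKK1 libraries. Library 1 was the highest of the wild-type and the lowest of the DKK1 libraries, so the groups overlapped (log2 fold change 0.38 ± 0.24, adjusted p 0.383). Pgf differed by 0.33 ± 0.16, with an adjusted p of 0.257, and again only DKK1 library 1 lay within the wild-type range. Vegfb, at 61.6, 57.8 and 60.9 CPM in wild-type and 61.6, 65.8 and 64.8 CPM in DKK1 mice, differed by 0.09 ± 0.05 (adjusted p 0.268). The highest wild-type and the lowest DKK1 library of Vegfb were equal at this rounding.

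For Vegfa (-0.01 ± 0.07), Vegfc (0.10 ± 0.22), Flt1 (0.08 ± 0.13), Kdr (-0.02 ± 0.27), Flt4 (0.06 ± 0.14) and Tek (0.08 ± 0.28) the log2 difference between genotypes was under 1 standard error from 0. A p that misses the threshold does not show that the genotypes were alike, and for Kdr and Tek the standard error alone amounts to 0.27 and 0.28 on the log2 scale.

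Kdr and Tek were highest in library 1 of all 4 groups, and 910 of the 17612 tested genes (5.17%) shared that pattern. The pattern was noticed in the values of Kdr. A fit without library 1 of any group, chosen after the values were seen, called 3 of the 10 genes between the genotypes in the lesioned hemisphere. They were Angpt2 (1.32, adjusted p 7.20e-04), Angpt1 (0.80, adjusted p 0.00310) and Pgf (0.50, adjusted p 0.0447). In that fit 28.9% of all tested genes were called, as against 2.37% with all libraries. That fit has 2 libraries a group, and it is given as a measure of how far these 4 libraries move the comparison, not in place of the fit of all 12.

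In the intact hemisphere no member was called between the genotypes, against 0.88% of all tested genes. By DESeq2 and limma-voom the count was 0 as well, and no member had an unadjusted p under 0.05. The largest log2 differences were those of Kdr (-0.21 ± 0.28) and Pgf (-0.21 ± 0.18), and every adjusted p was at least 0.986. Vegfb was the 1 gene whose libraries did not overlap, at 61.5, 59.1 and 59.5 CPM in wild-type and 62.6, 63.0 and 64.2 CPM in DKK1 mice, a log2 difference of 0.08 ± 0.05, against 11.9% of all tested genes without overlap.

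Whether the lesion difference itself depended on genotype was tested as an interaction, in which no member and 0.00568% of all tested genes were called. DESeq2 and limma-voom called 0 members too. Pgf had an interaction of 0.54 ± 0.24 on the log2 scale, the 1 member with an unadjusted p under 0.05 (0.0427), and an adjusted p of 0.512. For Angpt2 it was 0.90 ± 0.50 (adjusted p 0.600) and for Angpt1 0.43 ± 0.35 (adjusted p 0.746). The larger lesion fold changes of these genes in DKK1 mice are thus not shown to differ from those in wild-type mice. With the block the adjusted p values were 0.254 for Pgf, 0.124 for Angpt2 and 0.374 for Angpt1, and 1.64% of all genes were called. Without library 1 of any group 1 member, Angpt2, was called (1.17, adjusted p 0.0347), against 8.39% of all genes.

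**Figure D4:**
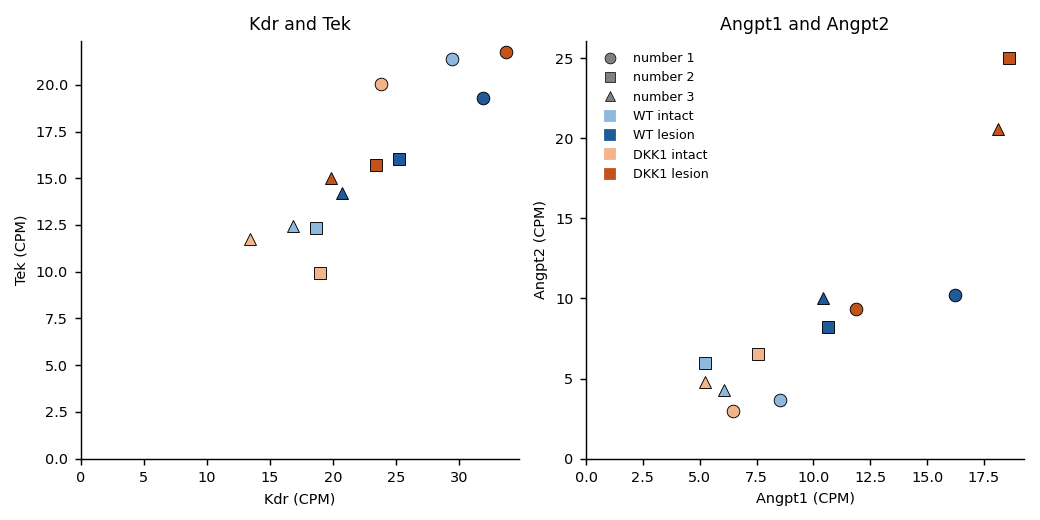
CPM of Tek against Kdr (left) and of Angpt2 against Angpt1 (right), 1 point per library, coloured by group and shaped by library number, with both axes linear from 0. The 4 libraries of number 1 hold the highest Kdr and Tek of their groups, and DKK1 lesioned libraries 2 and 3 lie apart with Angpt2 above 20 CPM.

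Over the 12 libraries Kdr and Tek moved together (Pearson r of log2 CPM 0.858), as did Flt1 and Tek (0.859). Pgf went with Angpt2 (0.932) and with Angpt1 (0.910), and Angpt1 with Angpt2 (0.857). Vegfa went against Pgf (-0.75). These correlations carry no test. Those among Pgf, Angpt1, Angpt2 and Vegfa describe libraries that share the hemisphere difference. Kdr and Tek were highest in library 1 in 4 of 4 groups, and Flt1 in 3 of 4. Kdr and Angpt2, both made by endothelial cells, had an r of 0.16, and Tek and its ligand Angpt2 an r of 0.00.

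Among all tested genes, the 3 whose log2 CPM followed a member most closely over the 12 libraries were Cttnbp2nl, Itprip and Ang for Pgf (each r 0.993 or 0.994). For Angpt1 they were Mtmr11, Fbn1 and Gypc (0.983 to 0.985), of which Fbn1 encodes the matrix protein fibrillin. For Angpt2 they were Zfyve21, Exosc5 and Fam50a (0.979 to 0.988). Kdr was followed by Nln (0.972), Mir1897 (0.935) and Kif21b (0.935), and Tek by Tm9sf3 (0.961), Tmed7 (0.941) and Kif21b (0.928). The highest values for Vegfa, Vegfb, Vegfc, Flt1 and Flt4 were 0.925 (Dusp22), 0.926 (Tmem160), 0.882 (Tmem265), 0.901 (Zadh2) and 0.870 (Nf2).

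Within a library, the ratio of Angpt2 to Angpt1 counts is free of library scaling. It was 0.76 ± 0.36 in the intact and 0.79 ± 0.17 in the lesioned hemisphere of wild-type mice. In DKK1 mice it was 0.75 ± 0.25 in the intact and 1.09 ± 0.28 in the lesioned hemisphere (SD, n = 3). Lesioned DKK1 libraries 1, 2 and 3 stood at 0.785, 1.34 and 1.14, and the wild-type lesioned ones at 0.631, 0.772 and 0.964. All 4 groups overlapped in this ratio. The ratio of Vegfa to Vegfb counts was 1.66 to 1.70 in the intact and 1.38 to 1.44 in the lesioned hemisphere of DKK1 mice, without overlap, and 1.59 to 1.74 and 1.33 to 1.71 in wild-type mice, with overlap. In DKK1 mice this ratio restates the fall of Vegfa, since Vegfb was level (0.02 ± 0.05). The CPM of Vegfa did not overlap there either, as for 59.9% of all tested genes.

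The receptors were also set against 16 other endothelial markers, such as Pecam1 and Cdh5, summed in the same library. In bulk tissue, fewer cells of a type and less RNA per cell cannot be told apart. The endothelial markers summed to 510 to 526 CPM in the intact and 615 to 656 CPM in the lesioned hemisphere of wild-type mice, and to 469 to 492 and 674 to 799 CPM in DKK1 mice. Of the 16 markers, 6 were called higher in the lesion of wild-type mice and 11 in that of DKK1 mice, with 0 lower in both, and none was at 0 counts. Flt4 per 100 endothelial marker counts was 1.48 ± 0.11 in the intact and 1.17 ± 0.14 in the lesioned hemisphere of wild-type mice, and 1.48 ± 0.08 and 1.03 ± 0.11 in DKK1 mice. The hemispheres did not overlap for Flt4 in either genotype on this scale, although its CPM was called in neither. The marker sum itself did not overlap between the hemispheres, so a gene with level CPM and a small spread also falls on this scale. How many other genes do so was not counted. Flt1 went from 16.8 ± 2.90 to 13.8 ± 1.34 per 100 in wild-type and from 17.5 ± 2.80 to 12.6 ± 1.88 in DKK1 mice, with overlap in both. Kdr (4.19 ± 1.37 to 4.1 ± 0.74, and 3.90 ± 1.18 to 3.54 ± 1.27) and Tek (2.99 ± 1.05 to 2.62 ± 0.32, and 2.90 ± 1.21 to 2.42 ± 0.71) overlapped as well.

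**Figure D5:**
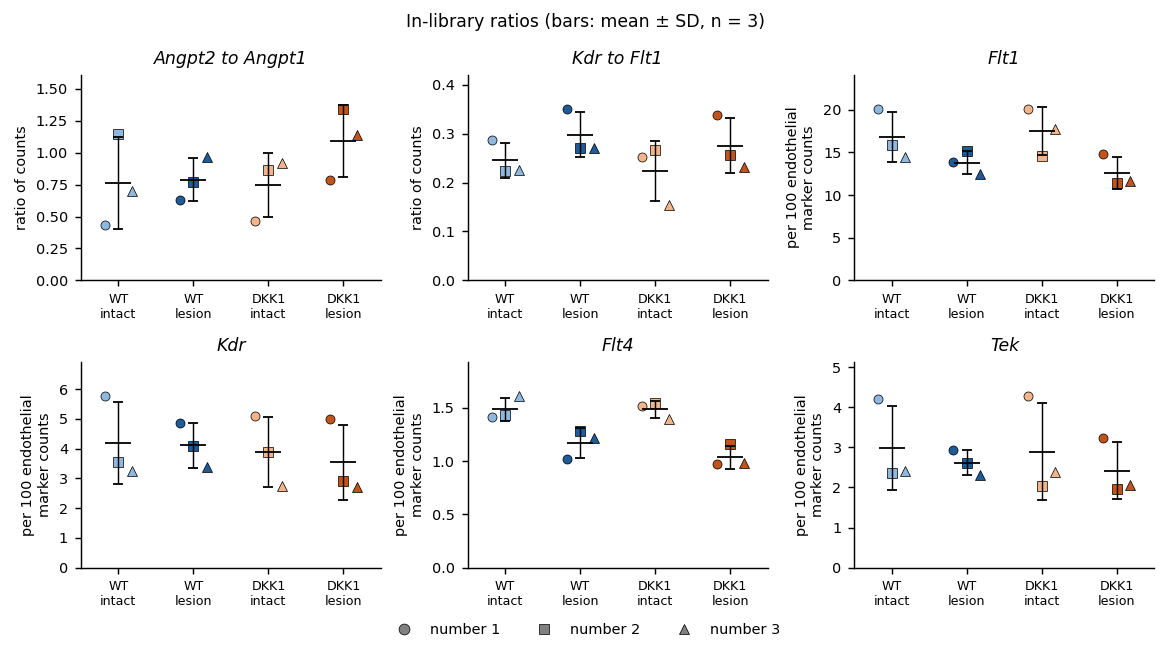
Count ratios within each library (y axes, linear, from 0) by group, with the mean and SD of 3 libraries as bars and the library number as marker shape: Angpt2 to Angpt1, Kdr to Flt1, and the 4 receptors per 100 counts of 16 endothelial markers. Flt4 per 100 endothelial marker counts is the receptor whose lesioned and intact libraries do not overlap in either genotype. The marker sum that it is divided by does not overlap between the hemispheres either.

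Markers of other cell types moved with the hemisphere beside Pgf, Angpt1 and Angpt2, and their part in those results was not tested. All 10 fibroblast markers, such as Dcn and Col1a1, were called higher in the lesion of both genotypes, and they summed to 319 to 441 CPM (intact) and 960 to 1621 CPM (lesioned) in wild-type and to 304 to 360 and 1376 to 1858 CPM in DKK1 mice. Of the 12 mural markers 5 and 7 were called higher, with Pdgfrb at 0.87 ± 0.14 and 1.35 ± 0.14, and they summed to 372 to 469 CPM (intact) and 502 to 621 CPM (lesioned) in wild-type and to 352 to 422 and 652 to 694 CPM in DKK1 mice. Of the microglia and macrophage markers 9 of 10 and 10 of 10 were called higher, and they summed to 184 to 347 CPM (intact) and 761 to 1336 CPM (lesioned) in wild-type and to 185 to 241 and 1329 to 1491 CPM in DKK1 mice. Astrocyte markers were higher in 4 and 5 of 8, with 1 of 8 lower in DKK1 mice, and oligodendrocyte markers were higher in 6 of 7 in both genotypes. Neuron markers fell in 7 of 8 and 8 of 8. Choroid plexus markers were called higher in 7 of 7 and 2 of 7, and their sum varied from 79.6 to 460 CPM among libraries. Of 6 genes taken as lymphatic markers, set beside Flt4 and Vegfc, 4 were tested. Whether they mark lymphatic cells in this tissue was not examined. In the wild-type lesion 2 were higher (Prox1 and Pdpn) and 1 lower (Reln), and in the DKK1 lesion 1 was higher (Pdpn) and 1 lower (Reln). Lyve1, at 0.81 to 1.47 CPM as group means, was called in neither lesion (adjusted p 0.552 and 0.0897). The chemokine gene Ccl21a was at 0 counts in every group. Which cells carried these transcripts was not tested. Between the genotypes in the lesioned hemisphere the endothelial Pecam1 (0.51 ± 0.08, adjusted p 0.00882) and the mural Myh11 (0.52 ± 0.11, adjusted p 0.0366) were the markers called, and none was called in the intact hemisphere. Of all tested genes 2.37% were called in the lesioned and 0.88% in the intact hemisphere.

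Further genes of the pathway were taken by role, and their counts stand beside those of all tested genes, of which 21.2% rose and 15.9% fell in the wild-type lesion and 27.5% rose and 22.6% fell in the DKK1 lesion. Among 16 partners of these ligands and receptors, 5 (31.2%) rose and 1 (6.25%) fell in the wild-type lesion, and 10 (62.5%) rose and 1 (6.25%) fell in the DKK1 lesion. Nrp1, the co-receptor of Vegfa and Kdr, rose by 1.35 ± 0.17 and 1.66 ± 0.17 on the log2 scale (adjusted p 1.75e-04 and 1.72e-05). Nrp2, the co-receptor of Vegfc, rose by 0.75 ± 0.14 in wild-type mice (adjusted p 0.00220). Itgb1, an integrin subunit, rose by 0.77 ± 0.12 and 1.24 ± 0.12 (adjusted p 6.25e-04 and 1.08e-05), and Sema3a, a semaphorin that also binds Nrp1, fell by 0.59 in the wild-type lesion (adjusted p 0.00808). The median of the partners was 0.53 in wild-type mice and 1.06 in DKK1 mice, against 0.01 over all genes in each. No partner was called between the genotypes in either hemisphere.

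Of the genes of oxygen sensing and hypoxia, some of which are known to act on Vegfa, 3 of 20 (15%) rose and 2 (10%) fell in the wild-type lesion, and 7 (35%) rose and 4 (20%) fell in the DKK1 lesion, with median log2 fold changes of -0.01 and 0.02, so that these shares and medians were near those of all tested genes. Hk2, a hexokinase, rose most clearly (2.11 ± 0.17 and 2.75 ± 0.17, adjusted p 1.81e-05 and 1.23e-06). Hif1a, the oxygen-regulated transcription factor, rose by 0.42 ± 0.08 and 0.56 ± 0.08 (adjusted p 0.00219 and 1.66e-04), while its target Bnip3 fell by 0.26 in wild-type mice (adjusted p 0.0124). None of the 20 was called between the genotypes in either hemisphere.

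Of 18 effectors that act downstream of the receptors, 1 (5.56%) rose and 6 (33.3%) fell in the wild-type lesion, with a median of -0.07. In the DKK1 lesion 5 (27.8%) rose and 4 (22.2%) fell, with a median of -0.05, which is about the share of all tested genes in each direction. Sh2d2a, an adaptor that binds Kdr and is also made by T cells, rose by 4.07 ± 0.40 and 4.91 ± 0.40 (adjusted p 3.98e-05 and 3.42e-06), and the kinase Src fell by 0.17 and by 0.23 (adjusted p 0.00727 and 6.72e-04). No effector was called between the genotypes in either hemisphere.

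Of 18 genes of vessel sprouting and Notch signalling, 5 (27.8%) rose and 1 (5.56%) fell in the wild-type lesion, where the share that rose was near that of all tested genes, and 10 (55.6%) rose and 1 (5.56%) fell in the DKK1 lesion. The medians were 0.41 and 0.66. Cxcr4, a chemokine receptor of tip cells that many immune cells also carry, rose by 3.71 ± 0.25 and 5.08 ± 0.26 (adjusted p 1.36e-05 and 7.77e-07). In the lesioned hemisphere 3 of the 18 (16.7%) were higher in DKK1 mice: Plvap, a protein of leaky endothelium (0.66 ± 0.13, adjusted p 0.0272), Cxcr4 (0.93 ± 0.20, adjusted p 0.0366) and the endothelial receptor Notch4 (0.92 ± 0.20, adjusted p 0.0394). Of all tested genes 2.37% were called in that comparison. Plvap was also the 1 gene of this list called in the intact hemisphere (0.88 ± 0.13, adjusted p 0.00461), where 0.88% of all tested genes were called.

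Wnt signalling acts on brain endothelium through its own genes, and 3 of 15 of them (20%) rose in the lesion of wild-type mice and 4 (26.7%) in that of DKK1 mice, about the shares of all tested genes that rose. None was called lower, and the medians were 0.19 and 0.21. Adgra2, a co-activator of endothelial Wnt signalling, rose by 0.57 ± 0.16 and 1.02 ± 0.16 (adjusted p 0.0180 and 3.75e-04). Nkd2, an antagonist of the pathway, rose by 0.87 ± 0.21 and 1.39 ± 0.21 (adjusted p 0.00786 and 2.47e-04). Between the genotypes in the lesioned hemisphere the Wnt target Axin2 had a log2 difference of -0.21 ± 0.10 (adjusted p 0.241).

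Some members share bases with other genes, and whether the counting used strand is not given in the sources used here. Angpt2 (chr8:18690263-18741562, minus strand) lies inside Mcph1, a gene on the plus strand from 18595131 to 18803189. Mcph1 stood at 13.3 to 15.1 CPM as group means and was called in none of the 5 comparisons. Angpt1 (chr15:42424667-42676977, minus strand) overlaps the antisense gene Gm17473 at 42676241 to 42704616 on chromosome 15. The count table gives 1 transcript per gene, so soluble forms of Flt1 and the splice forms of Vegfa are not separated.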

How the data were processed

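The 12 libraries (NEBNext Ultra II directional kit, per the labels' protocols) were analysed as the authors deposited them: raw counts for 1 RefSeq transcript per gene, in HOMER's layout per the file headers, and a deposited TPM table, in which 4 of the 10 genes have another transcript. The submitters' processing notes name STAR 2.7.0f, HOMER 4.11, DESeq2 and mm10. Counts were filtered (edgeR 4.0.16 filterByExpr, minimum count 10), TMM-scaled and fitted in 1 robust quasi-likelihood model of the 4 groups in R 4.3.3, tested on simulated data, with 5 two-sided comparisons. Alternatives used DESeq2 1.42.0, limma 3.58.1 (voom, and log2(TPM + 1) for genes with a TPM of at least 0.5 in 3 libraries), other scalings, no filter, only the 2 groups compared, replicate blocks and each library left out.

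The members and lists were chosen with earlier results of these data known. All members, up to 4 genes of each list with the smallest p (examples printed) and the 3 genes most like each member were named, with a prior count of 2 in log2 CPM. The labels do not say that equal numbers mark 1 animal. Deviations of same-numbered hemispheres from their group means had correlations of 0.487, 0.310 and 0.297 (wild type, numbers 1 to 3) and of 0.276, 0.125 and 0.105 (DKK1). All were over 0.1, and the numbers were taken to pair the hemispheres. Across genotypes the correlations ran from -0.063 to 0.257, and the numbers were not taken to pair. Yet intact number 1 (0.257) and lesioned number 2 (0.111) were over 0.1 there too. The cut thus does not separate the cases, and the pairing of hemispheres is an assumption, least secure in DKK1 mice. 1 gene that the rule for named genes takes is not reported here.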

Additional observations from a re-analysis of the deposited data

How the results depend on the processing

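The calls of Pgf, Angpt1, Angpt2 and Vegfa in the DKK1 lesion held under all 15 alternatives of that comparison, and that of Pgf in wild-type mice under all 16. Other calls depended on the setting. In the wild-type lesion the members called numbered 3, 5 with the replicate block (Kdr and Vegfa added), and 1 to 4 when each library was left out. They were fewest, 1, without lesioned library 1. Without 1 library the call of Angpt1 was lost for intact 2 and lesioned 1, and that of Angpt2 for intact 1 and 3 and lesioned 1 and 3. Vegfa was called without lesioned library 2 (-0.23, adjusted p 0.0305). Between the genotypes in the lesioned hemisphere 0 members were called, 0 to 1 with each library left out (1, Angpt2, without DKK1 library 1) and 3 with number 1 left out of all 4 groups. In the interaction 0 were called, and 1 (Angpt2, 1.17, adjusted p 0.0347) with number 1 left out. The same setting called Tek in the DKK1 lesion (0.51, adjusted p 0.00383). This setting and the removal of both wild-type number 1 libraries, which stand apart from their groups, were chosen after seeing the data. In the DKK1 lesion the block called 6 members, with Kdr and Tek added to the 4, and it changed no other call, as genotype by number or as number alone. The causes were not tested.

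Genes called between the genotypes in the lesioned hemisphere numbered 417, from 97 with only the 2 groups compared to 5096 with number 1 left out, with 119 (without wild-type lesioned library 3) to 2551 (without wild-type lesioned library 1) when 1 library was left out. In the intact hemisphere they numbered 155, from 94 to 285, and in the interaction 1, from 0 to 1478. Of the 417, 64.3% were higher in DKK1 mice, and 50% under upper-quartile scaling. With 35 to 61 counts in an intact library, counting error is largest for Pgf.

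Of 860 log2 fold changes of single members under an alternative, 758 kept direction and side of the threshold, 10 lost and 11 gained the call, and 81 changed sign. These 81 came from 25 results that were called in no setting with the other sign, and none was larger than 0.24 in all 12 libraries, so those directions are not stable. With each library left out in turn, the ranges were these. In the wild-type lesion they were Vegfb from -0.016 to 0.028, Vegfc from -0.086 to 0.30, Flt1 from -0.10 to 0.13, Flt4 from -0.12 to 0.0012 and Tek from -0.043 to 0.41. In the DKK1 lesion they were Vegfb from -0.019 to 0.044, Flt1 from -0.014 to 0.18 and Flt4 from -0.066 to 0.19. In the lesioned hemisphere between the genotypes they were Vegfa from -0.088 to 0.056, Vegfc from -0.14 to 0.32, Flt1 from -0.00039 to 0.14, Kdr from -0.27 to 0.16, Flt4 from -0.098 to 0.16 and Tek from -0.10 to 0.21. In the intact hemisphere between the genotypes they were Flt1 from -0.14 to 0.093, Kdr from -0.41 to 0.078, Angpt1 from -0.19 to 0.18, Angpt2 from -0.24 to 0.29 and Tek from -0.51 to 0.16. In the interaction they were Vegfb from -0.018 to 0.043, Vegfc from -0.050 to 0.41, Flt1 from -0.011 to 0.20, Kdr from -0.097 to 0.37, Flt4 from -0.0010 to 0.26 and Tek from -0.075 to 0.57. Other settings gave the opposite sign as well. With DESeq2 they were Vegfb -0.0070 and Flt1 -0.0087 in the wild-type lesion. With DESeq2 size factors they were Vegfb -0.0059 and Flt1 -0.0082 in the wild-type lesion. With no filter they were Vegfb -0.0034 and Flt1 -0.0054 in the wild-type lesion, Vegfb -0.016 in the DKK1 lesion, Vegfb -0.013 in the interaction. With upper-quartile scaling they were Vegfb -0.0056 and Flt1 -0.0085 in the wild-type lesion, Vegfb -0.025 in the DKK1 lesion, Vegfb -0.019 in the interaction. With both wild-type number 1 libraries left out they were Vegfc -0.10 in the wild-type lesion, Kdr 0.16 and Flt4 -0.0072 in the lesioned hemisphere between the genotypes, Flt1 0.093, Kdr 0.077, Angpt1 0.18, Angpt2 -0.093 and Tek 0.16 in the intact hemisphere between the genotypes. With number 1 left out of all groups they were Vegfc -0.10 in the wild-type lesion, Vegfa 0.033 in the lesioned hemisphere between the genotypes, Flt1 0.0052 and Angpt1 0.18 in the intact hemisphere between the genotypes. With limma on TPM it was Vegfb -0.023 in the interaction.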
